A study of Arabidopsis thaliana with 6 samples.

Results

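The D-type cyclins of Arabidopsis thaliana were followed in root tips of wild-type plants and of the mutant scl28-3, in which SCL28, a gene for a transcription factor of the GRAS family, is affected. The 10 genes were chosen by their gene IDs, and 9 of them were among the 21125 genes listed with a value. Gene positions are those of TAIR10.1. The gene without a listed value was CYCD7;1 (AT5G02110, chr5:416917-418666, plus strand). RNA came from root tips about 2 mm long, taken at 6 days from seedlings kept at 21 °C under continuous light, with about 300 tips pooled for each of 3 wild-type and 3 scl28-3 libraries. The labels give no difference between the groups other than genotype, and neither the kind of mutation in scl28-3 nor the accession is given in the sources used here.

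D-type cyclins are the cyclins of the G1 phase. They join a cyclin-dependent kinase, in plants mainly CDKA, and the pair phosphorylates the retinoblastoma protein RBR1, which then releases E2F transcription factors that switch on genes of DNA replication. Their levels are known to follow sucrose, cytokinin and developmental cues, and KRP proteins inhibit the kinases they activate. In the root, members of the family act in the meristem, in the pericycle that founds lateral roots, and in the division that separates cortex from endodermis.

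Many D-type cyclins reach RBR1 through a short sequence near the start of the protein, leucine, any residue, cysteine, any residue, glutamate, written LxCxE. Translation of the RefSeq coding sequences (TAIR10.1) found it once in 7 of the 10 members and in none of the other 3, which were CYCD4;2, CYCD5;1 and CYCD6;1. The coding strand is shown 5′ to 3′ for 7 members on which the results turn, since the motif sets members apart in how they meet RBR1. Capitals mark the 15 bases of the LxCxE codons, or in CYCD5;1 of the stretch most like it.
CYCD2;1: gagaatCTTGCTTGTGGTGAAaccagc
CYCD3;1: gatgctCTCTACTGCGAAGAAgagaaa
CYCD3;2: gatgggCTCTATTGCGAGGAAgaaacc
CYCD3;3: gatggtCTTTTCTGTGAGGAAgagagt
CYCD4;1: ctgagtCTTTTATGTACAGAGagcaac
CYCD4;2: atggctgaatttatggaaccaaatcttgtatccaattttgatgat
CYCD5;1: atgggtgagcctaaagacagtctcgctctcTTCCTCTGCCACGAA
The motif began at residue 5 in the first of these, at residues 22, 21 and 20 in the D3 genes and at residue 10 in the fifth. The last sequence, which starts at the start codon, holds the cysteine and glutamate from residue 11 on, with a phenylalanine codon where the motif has leucine. The first 40 codons of CYCD4;2 hold no such stretch, although its protein shared 71.9% of 295 aligned residues with that of CYCD4;1. The other close pair was CYCD3;2 and CYCD3;3, with 70.5% of 352 aligned residues.

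The recovered reads numbered 10399893 to 11572901 in wild type and 13996627 to 16780424 in scl28-3, so that 3 reads stood for 0.179 to 0.288 CPM, the read count of a gene scaled to a fixed library total. SCL28 (AT1G63100) measured 44.5, 42.59 and 42.38 CPM in the wild-type libraries against 17.72, 14.92 and 13.65 CPM in the mutant, a log2 fold change of -1.48 ± 0.12 (limma adjusted p = 0.0022). All 7 root tip markers were listed, and WOX5, which marks the quiescent centre, was the lowest, at 0.36 to 1.13 CPM. The 8 endodermis markers summed to 147, 282 and 375 CPM in wild type and to 297, 298 and 447 CPM in scl28-3, so wild-type library 1 had the least. All 8 were higher in scl28-3, the median being 0.45 on the log2 scale, and none was called. That median includes wild-type library 1. The sums of wild-type libraries 2 and 3, 282 and 375 CPM, lay just below and within the mutant range. Whether the lean holds without library 1 was not tested. Markers of green tissue summed to between 9.58 and 17.6 CPM in the 6 libraries, and 0 of the 3 stomatal lineage markers SPCH, MUTE and FAMA was listed.

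Root tips held mostly 3 D-type cyclins. To compare genes, CPM was divided by each gene's exonic length in TAIR10.1, which gives CPM per kb. On that scale CYCD3;2 (AT5G67260, chr5:26836139-26839597, plus strand) was highest at 31.4 ± 1.33 in wild type (SD, n = 3) and 29.1 ± 0.790 in scl28-3. CYCD2;1 (AT2G22490, chr2:9553797-9556167, minus strand) followed at 27.2 ± 1.98 and 28.3 ± 2.89, and CYCD3;3 (AT3G50070, chr3:18565134-18566834, minus strand) at 18.4 ± 2.18 and 17.7 ± 0.229 CPM per kb. Together these 3 made up 74.9% to 75.5% of the family's summed CPM per kb in wild type and 76.4% to 78.9% in scl28-3. The ranges of the first pair in this order overlapped over the 6 libraries, while the third gene lay apart from its neighbours on both sides.

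The middle of the order held 3 genes. CYCD5;1 (AT4G37630, chr4:17679168-17681264, plus strand) was at 8.72 ± 0.988 CPM per kb in wild type and 6.39 ± 0.610 in scl28-3. CYCD3;1 (AT4G34160, chr4:16357421-16359565, plus strand) was at 6.20 ± 0.545 and 7.02 ± 1.17, and CYCD4;1 (AT5G65420, chr5:26141470-26144020, minus strand) at 5.54 ± 0.646 and 4.82 ± 0.284 CPM per kb. The first overlapped the second in its range over the 6 libraries and the second overlapped the third, which lay apart from the next gene down. The first gene was above the second in each wild-type library. The order held in scl28-3 library 1, at 7.08 against 5.68 CPM per kb. In mutant libraries 2 and 3 the second gene was the higher, at 7.62 against 5.91 and 7.76 against 6.19 CPM per kb.

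At the low end stood CYCD4;2 (AT5G10440, chr5:3280487-3282553, minus strand) with 2.82 ± 0.156 CPM per kb in wild type and 2.14 ± 0.219 in scl28-3. CYCD1;1 (AT1G70210, chr1:26439556-26443007, plus strand) had 1.36 ± 0.297 and 1.03 ± 0.250, and CYCD6;1 (AT4G03270, chr4:1431844-1433861, minus strand) 0.749 ± 0.153 and 0.578 ± 0.0124 CPM per kb, with overlapping ranges. The summed level of the 9 genes was 102 ± 6.86 CPM per kb in wild type and 97.0 ± 2.98 in scl28-3, a difference smaller than the wild-type spread. The bars of the family's make-up show the same 3 genes filling about the same part of every library.

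**Figure D1:**
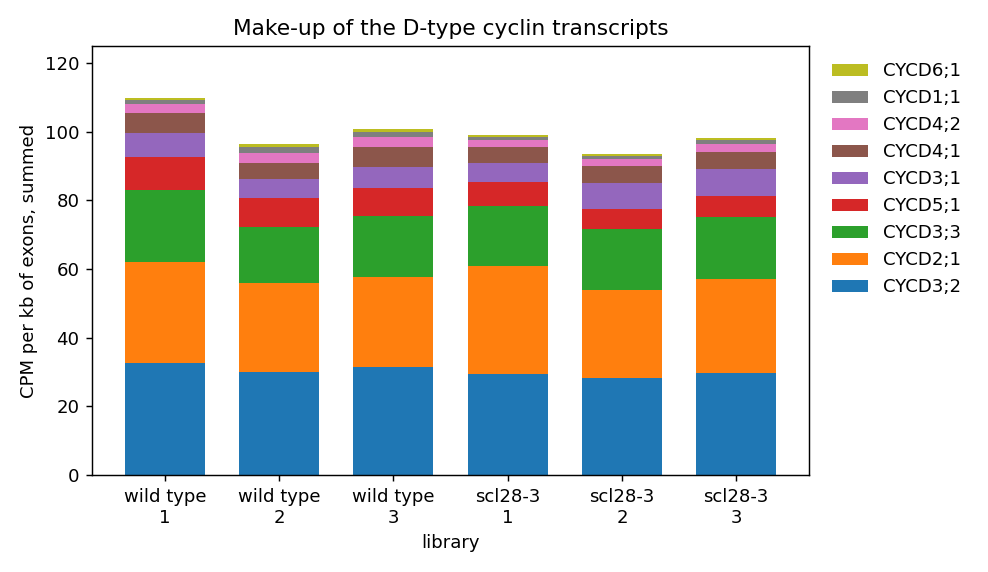
Stacked bars of CPM per kb of exons for the 9 listed D-type cyclins in each of the 6 libraries, 1 library a bar. The summed height runs from 93.6 to 110 CPM per kb, and the 3 lowest segments make up 74.9% to 78.9% of each bar.

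No D-type cyclin passed the test between the genotypes. In limma, with p-values adjusted over 17879 tested genes and a threshold of 0.05, 0 of the 9 tested members were called lower and 0 higher. The background was 0.0727% of tested genes called lower and 0% called higher, so a count of 0 among 9 genes is at the background. At an unadjusted p under 0.05, 2 members were lower and 0 higher, against 2.17% and 2.2% of all tested genes. All 9 members passed the filter on low values, and leaving out any 1 library gave 0 calls among them. edgeR's quasi-likelihood test and DESeq2 also called 0, with 1 lower member each at an unadjusted p under 0.05.

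Most members leaned the same way. Of the 9, 7 were lower and 2 higher in scl28-3, with a median log2 fold change of -0.20, beside 8570 lower and 9309 higher among all tested genes, whose median was 0.01. In 3 members the CPM of the genotypes did not overlap, each lower in scl28-3, against a background of 4.22% of tested genes without overlap and lower, and 6.19% without overlap and higher. These 3 were CYCD5;1, CYCD4;2 and CYCD3;2. Markers of differentiated tissues leaned upward in the same libraries, although none was called. Besides the endodermis list, all 6 root hair markers were higher, with a median of 0.23 on the log2 scale, as were 3 of 4 phloem markers with a median of 0.28. The 3 tested xylem markers were higher, with a median of 0.12, and so was the 1 tested pericycle marker, at 0.21. As in the endodermis list, wild-type library 1 had the lowest phloem, xylem and pericycle sums of the 6 libraries. Summed xylem markers were 36.9, 54.4 and 57.8 CPM in the wild-type libraries against 48.1, 49.2 and 68.6 CPM in the mutant. Root cap markers split 2 higher to 1 lower, and of the 7 root tip markers 4 were lower and 3 higher, with a median of -0.05. RHD6, at 0.01, counts in both the root hair and root tip lists, and SMB in both the root cap and root tip lists. Summed root hair markers ranged from 212 to 276 CPM in wild type and from 263 to 322 CPM in scl28-3, so the genotypes overlapped. The part of these tissues in the cyclin values was not tested. Bulk RNA cannot tell fewer cells that express a gene from less transcript per cell, so a lower level may be either. Log2 fold changes here are on log2(CPM + 0.5) after scaling by TMM factors, and their errors are standard errors.

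**Figure D2:**
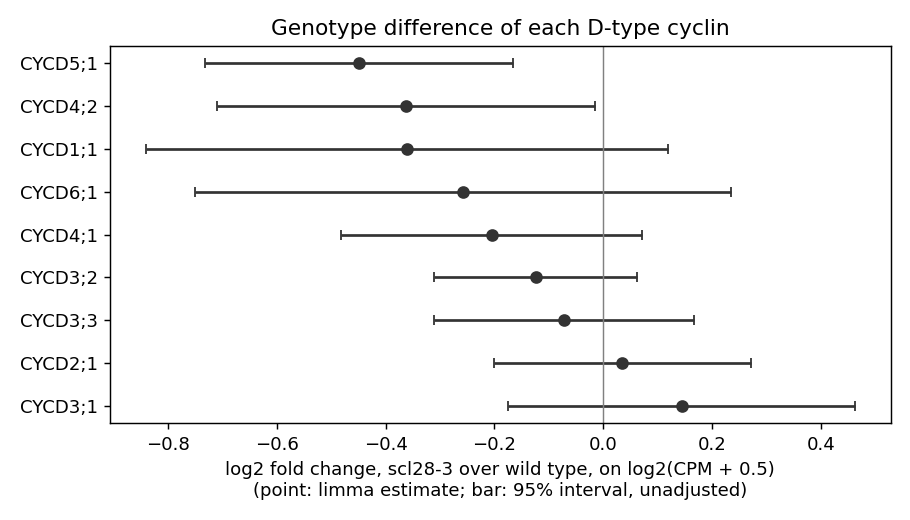
Log2 fold change of scl28-3 over wild type for the 9 tested D-type cyclins, as limma estimates with 95% intervals that are not adjusted for the number of genes. Intervals of 2 genes lie below 0, and the estimates run from -0.45 to 0.14.

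CYCD5;1 showed the lowest p-value of the family. Its product has been linked to endoreduplication in leaves and to the division of guard mother cells. It measured 18.32, 15.19 and 15.09 CPM in the wild-type libraries against 13.15, 10.98 and 11.5 CPM in the mutant. Every scl28-3 library was below every wild-type library, and wild-type library 1 was the highest of all. On average this was 16.2 ± 1.84 against 11.9 ± 1.13 CPM (SD, n = 3 each). The estimated log2 difference was -0.45 ± 0.13, with an unadjusted limma p of 0.00568 and a limma adjusted p = 0.952, so it was not called. The 95% interval of the difference reached from 0.602 to 0.892 times the wild-type level. It rested on 156 to 212 reads a library. Without wild-type library 1, the library with the lowest endodermis markers, the log2 fold change was -0.36.

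The D3 genes, which cytokinin is known to induce and which prolong the dividing phase of cells in lateral organs, were represented by all 3 members. CYCD3;2 measured 54.95, 50.48 and 52.74 CPM in the wild-type libraries against 49.44, 47.43 and 49.94 CPM in the mutant. The genotypes did not overlap, but by a narrow gap, with the highest scl28-3 library at 49.94 and the lowest wild-type library at 50.48 CPM. On the log2 scale the difference was -0.12 ± 0.08 (limma adjusted p = 0.995), and its 95% interval ran from 0.806 to 1.05 times the wild-type level.

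CYCD3;3 measured 29.98, 23.85 and 25.71 CPM in the wild-type libraries against 25.08, 25.41 and 25.74 CPM in the mutant. Wild-type library 1 was the highest, the other libraries lay close together, and the genotypes overlapped. Its log2 fold change came to -0.07 ± 0.11 with a limma adjusted p = 0.995, and the interval was 0.806 to 1.12 times the wild-type level. It turned to 0.014 without wild-type library 1 and moved to -0.13 without wild-type library 2.

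CYCD3;1 was the D-type cyclin with the highest estimate in scl28-3. It measured 12.62, 10.58 and 11.67 CPM in the wild-type libraries against 10.64, 14.29 and 14.54 CPM in the mutant. The mutant libraries 2 and 3 were above all wild-type libraries, while library 1 lay among them. The estimate was 0.14 ± 0.14 on the log2 scale with a limma adjusted p = 0.995, and its interval spanned 0.886 to 1.38 times the wild-type level. Its value moved to 0.28 without scl28-3 library 1 and to 0.07 without scl28-3 library 2 or without library 3. It was 0.095 without wild-type library 2. The 3 related genes thus had estimates of either sign, and none passed.

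CYCD2;1, whose level is known to influence lateral root formation and the response to auxin, showed the smallest estimate. It measured 51.32, 45 and 45.72 CPM in the wild-type libraries against 54.8, 44.97 and 47.97 CPM in the mutant. The genotypes overlapped, and library 1 was the highest in each. limma put the log2 fold change at 0.04 ± 0.11 with a limma adjusted p = 0.998. Its interval, 0.870 to 1.21 times the wild-type level, was among the narrowest of the family, on 468 to 805 reads a library. The sign turned without scl28-3 library 1, to -0.049, and without wild-type library 3, to -0.0058, and the value was 0.092 without scl28-3 library 2.

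The D4 genes differ in the RBR-binding motif, as printed above, and both have been described in the hypocotyl's stomatal lineage, the first also in the pericycle. CYCD4;1 measured 12.18, 9.71 and 11.67 CPM in the wild-type libraries against 9.07, 10.06 and 10.07 CPM in the mutant. The wild-type library 2 lay among the mutant libraries and the other 2 above them. A log2 fold change of -0.20 ± 0.12 was estimated with a limma adjusted p = 0.995 and an interval of 0.716 to 1.05 times the wild-type level.

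CYCD4;2 measured 3.63, 3.94 and 4.04 CPM in the wild-type libraries against 3.07, 2.6 and 3.16 CPM in the mutant. Each mutant library was below each wild-type library. On average this was 3.87 ± 0.214 against 2.94 ± 0.301 CPM (SD, n = 3 each). The fitted log2 difference was -0.36 ± 0.15, with an unadjusted limma p of 0.0422, a limma adjusted p = 0.995 and an interval of 0.611 to 0.989 times the wild-type level. Only 37 to 53 reads a library stood behind these values. The longest run of bases shared by the transcripts of the D4 pair was 37, the longest of any of the 45 pairs in the family. A read that lies wholly within it would be of uncertain origin, and whether there were such reads was not tested. The comparison used 1 transcript per gene and exact matches, so near matches were not examined.

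CYCD1;1, known from the onset of division in germinating seeds, measured 2.59, 4.04 and 3.6 CPM in the wild-type libraries against 2.07, 2.39 and 3.28 CPM in the mutant. The genotypes overlapped, and the spread within each was wide, at 21.8% and 24.3% of the mean. The log2 fold change was -0.36 ± 0.21 with a limma adjusted p = 0.995. Its interval of 0.558 to 1.09 times the wild-type level was the widest of the family on the log2 scale after that of CYCD6;1. The value moved to -0.23 without wild-type library 2, and without wild-type library 1 it was -0.53, with an unadjusted p under 0.05 (limma adjusted p = 0.477).

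CYCD6;1 drives the formative division of the cortex and endodermis initial and is switched on there by SHORT-ROOT (SHR) and SCARECROW (SCR), a GRAS-family pair. It measured 0.95, 1.44 and 1.23 CPM in the wild-type libraries against 0.93, 0.91 and 0.95 CPM in the mutant, from 11 to 16 reads a library. The lowest wild-type library equalled the highest mutant library. The log2 fold change was -0.26 ± 0.22 with a limma adjusted p = 0.995, and the interval was 0.594 to 1.18 times the wild-type level. It moved to -0.15 without wild-type library 2 and ran from -0.39 to -0.13 over 16 alternatives. Of its exonic bases, 24.4% are also exonic in AT4G03260 on the opposite strand, which averaged 53.1 ± 7.03 CPM in wild-type tips against 54.5 ± 1.64 CPM in mutant tips. Whether counting used the strand is not given in the sources used here, which leaves the origin of reads in that stretch uncertain.

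CYCD7;1, known from the last division of the stomatal lineage, had no listed value. Listed genes all had values above 0 in 3 or more libraries, and no level can be given for a gene outside that list. The 3 stomatal lineage markers were not listed either.

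**Figure D3:**
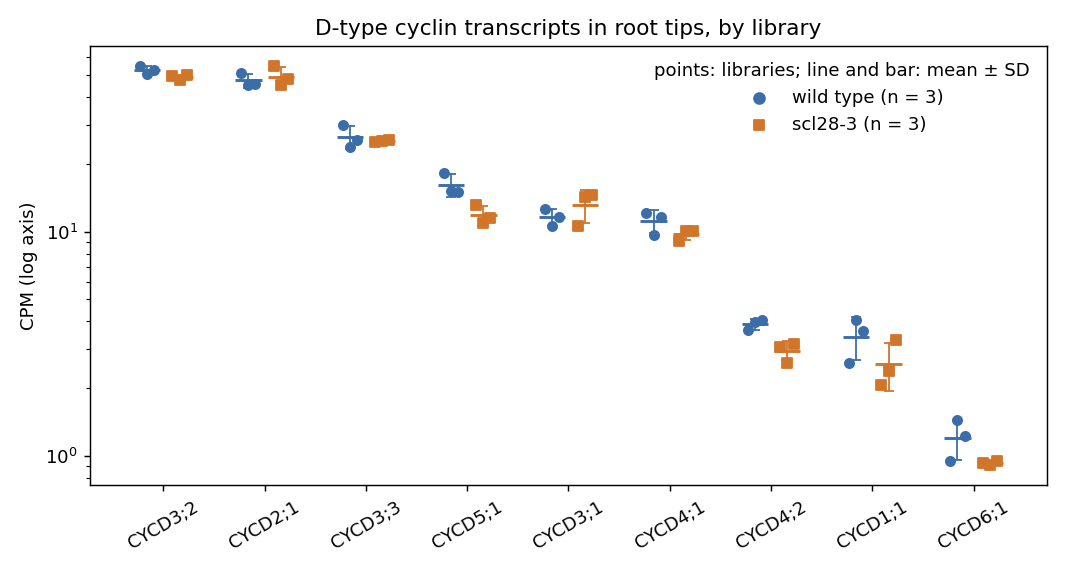
CPM of the 9 listed D-type cyclins on a log axis, with circles for the 3 wild-type libraries and squares for the 3 scl28-3 libraries, in replicate order within a cluster, and lines and bars for the mean ± SD. Levels run from 0.91 to 54.95 CPM, and the genotypes are apart in 3 genes, each lower in scl28-3. Of all tested genes, 4.22% were apart and lower and 6.19% apart and higher.

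Members without the LxCxE motif were all lower in scl28-3, with estimates of -0.45, -0.36 and -0.26, while the 6 tested members with it ranged from -0.36 to 0.14. Of those with the motif, CYCD1;1 (-0.36), CYCD4;1 (-0.20), CYCD3;2 (-0.12) and CYCD3;3 (-0.07) were lower too. CYCD2;1 (0.04) and CYCD3;1 (0.14) were higher. This grouping was made after the values were known and carries no test. Of the other 3 overlaps in the annotation, CYCD3;1 shares 40 bases with AT4G34150 on the same strand, and CYCD1;1 and CYCD3;2 share 144 and 103 exonic bases with genes on the opposite strand that have no listed value. In the 250 bases before the annotated gene start, 8 words taken for an E2F site were searched on both strands, TTTCCCGC, TTTCCCGG, TTTCGCGC, TTTCGCGG, TTTGCCGC, TTTGCCGG, TTTGGCGC and TTTGGCGG. A match was found in 1 of the 10 members, CYCD3;3, at 104 bases before its start, and in 2.8% of 27443 promoters. The core word AACGG of the mitotic MSA element was found in 1 member, CYCD3;1, at 145 bases before its start, and in 20.6% of promoters. The window searched for CYCD3;1 reaches into AT4G34150, its overlapping neighbour on the same strand, so the AACGG match may lie within that gene. The E2F and AACGG matches lie before different members, so they do not overlap.

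The partners of the D-type cyclins gave no calls. Of 58 other genes of the pathway, 57 were tested and 0 were called lower or higher by limma or edgeR. The limma background was 0.0727% of tested genes called lower and 0% called higher. At an unadjusted limma p under 0.05, 4 were lower and 0 higher, against 2.17% and 2.2% of all tested genes. The median log2 fold change of the 57 was -0.02, with 33 lower and 24 higher, beside 8570 lower and 9309 higher among all tested genes. DESeq2 called TSO2 lower (adjusted p = 0.000806), as did limma without wild-type library 1 (adjusted p = 0.0382).

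The kinases and their activators held 11 tested genes, 9 lower and 2 higher, with a median of -0.01. CDKA;1, the main kinase partner, was the most abundant and averaged 66.8 ± 1.59 CPM in wild-type tips against 67.2 ± 5.02 CPM in mutant tips, with a log2 fold change of -0.01 ± 0.09 and an interval of 0.861 to 1.14 times the wild-type level. CKS2, a docking subunit of the kinases, had the smallest p at 32.14, 33.56 and 37.29 CPM against 27.93, 29.56 and 26.99 CPM. Its genotypes did not overlap, with a log2 fold change of -0.30 ± 0.10 (limma adjusted p = 0.995).

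Of 8 genes for KRP inhibitors and FBL17, 4 were lower and 4 higher, with a median of 0.00. KRP6 measured 7.43, 8.27 and 10.7 CPM in the wild-type libraries against 6.22, 6.19 and 5.18 CPM in the mutant, without overlap, with a log2 fold change of -0.55 ± 0.16 (limma adjusted p = 0.952). FBL17, the F-box protein that marks KRPs for breakdown, was at 95.1 ± 8.12 and 99.5 ± 7.81 CPM.

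RBR1, the substrate of the D-type cyclin kinases, measured 65.67, 47.69 and 47.73 CPM in the wild-type libraries against 58.23, 50.18 and 54.76 CPM in the mutant. Library 1 was the highest in both genotypes, and the log2 fold change was 0.01 ± 0.13. Among the 9 genes of RBR1, E2F and DP factors, 4 were lower and 5 higher. DPA, a dimer partner of E2F, had the smallest p of these, at 23.6 ± 2.65 and 20.9 ± 0.596 CPM, with a log2 fold change of -0.19 ± 0.11.

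Among 19 S-phase genes regulated by E2F, 13 were lower and 6 higher, with a median of -0.06. TSO2, which encodes a subunit of the enzyme that makes deoxynucleotides, was both the most abundant and the one with the smallest p. It measured 147.06, 151.92 and 167.16 CPM in the wild-type libraries against 107.24, 110.98 and 115.07 CPM in the mutant, a log2 fold change of -0.50 ± 0.08 (limma adjusted p = 0.171).

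Known upstream regulators of the family split 3 lower to 7 higher among 10 tested genes, with a median of 0.06. SHR measured 40.7, 41.15 and 35.27 CPM in the wild-type libraries against 45.94, 43.35 and 41.24 CPM in the mutant, higher in each mutant library, with a log2 fold change of 0.14 ± 0.11 (limma adjusted p = 0.995). SCR was at 64.9 ± 12.8 and 65.8 ± 1.40 CPM. FLP, a MYB factor of the stomatal lineage and of lateral root founder cells, had the smallest p, at 9.97 ± 0.352 and 7.58 ± 0.715 CPM, with a log2 fold change of -0.40 ± 0.12 (limma adjusted p = 0.995). AHK4, a cytokinin receptor, was the most abundant at 73.0 ± 14.8 and 79.3 ± 5.66 CPM. ANT was listed but too low to be tested, at 0 to 0.53 CPM.

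**Figure D4:**
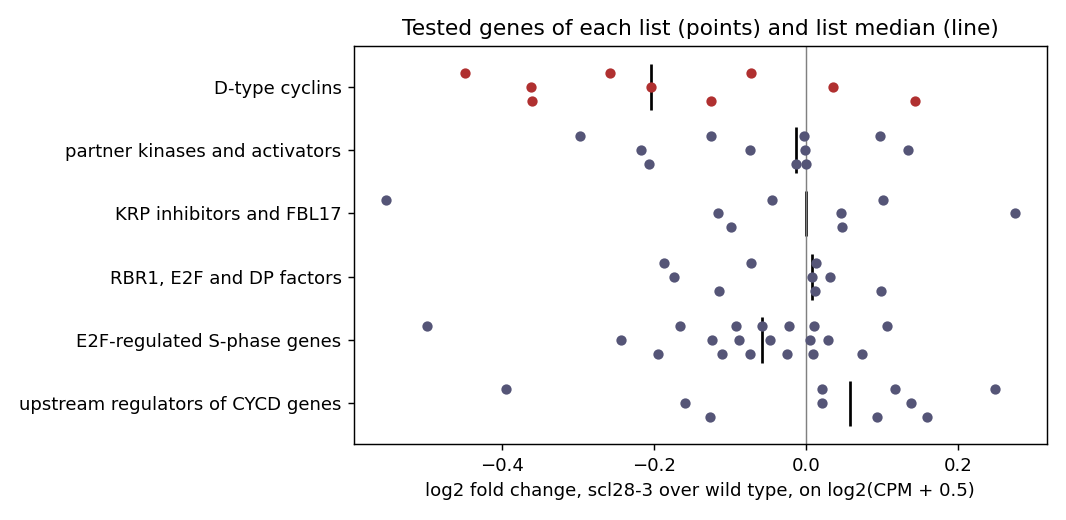
Log2 fold change of scl28-3 over wild type for the tested D-type cyclins and for the tested genes of 5 pathway lists, 1 point a gene, with a line at each list's median. The D-type cyclins have a median of -0.20, and the medians of the other lists lie between -0.06 and 0.06.

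Profiles most like those of the top 2 members by CPM were sought over the 6 libraries, by the root mean square difference of centred log2 values. For CYCD3;2 these were RAD52-2 (AT5G47870) and TGA3 (AT1G22070), with differences of 0.016 and 0.016, and for CYCD2;1 they were AT3G07300 and AT5G27550, with 0.018 and 0.023. The median difference over all tested genes was 0.165 and 0.177. The likeness is given as a description only.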

How the data were processed

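The authors deposited 1 table per library with CPM values per gene ID, per the file headers, rounded to 2 decimals. The submitters' processing notes name HISAT2 2.0.0, HTSeq 0.6.1p1, edgeR and TAIR10, and the annotation release is not given in the sources used here. Sums over a table ranged from 999949 to 999965 CPM. Low values were whole multiples of 1 step, and division by it gave whole reads for 100% of the values up to about 20 reads, within 0.1 read.

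The fit was limma 3.58.1 with an intensity trend in R 4.3.3, on log2(CPM + 0.5) after division by TMM factors (edgeR 4.0.16). filterByExpr with a minimum count of 10 on recovered reads left 17879 genes. P-values were two-sided, Benjamini-Hochberg adjusted over these. The fit was tested on simulated data. Alternatives covered DESeq2 1.42.0, edgeR's quasi-likelihood test, limma-voom, scaling, filters, pseudocounts, a replicate block and leaving out each library. Library pairs of a genotype differed in a chi-square comparison of reads, by 4.56 to 15.3 per degree of freedom.

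Gene models and sequences came from RefSeq TAIR10.1, with the longest coding sequence per gene, read with Biopython 1.88 and pysam 0.24.0. Exonic length was the union of annotated exons. Proteins were aligned globally with BLOSUM62. All members were named. Each pathway list gave its called genes, the gene with the smallest p and the one with the highest CPM, and other genes (SHR, SCR and ANT) were named after their values were seen. The members and lists were chosen with earlier results of these data known.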

Additional observations from a re-analysis of the deposited data

How the results depend on the processing

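Over 17 alternatives the count of D-type cyclins called was 0 in each direction. Their median log2 fold change of -0.20 was -0.13 with a pseudocount of 2. Of 152 pairs of member and alternative, 149 kept their direction and stayed uncalled, and 3 turned, in members whose estimates were near 0. CYCD2;1 ran from -0.049 (without scl28-3 library 1) to 0.092 (without scl28-3 library 2), and was -0.0058 without wild-type library 3. CYCD3;3 ran from -0.13 to 0.014 when a library was left out. CYCD5;1 stayed between -0.53 and -0.36, with an unadjusted p under 0.05 in each of 17 alternatives. Its lowest adjusted p was 0.105, in limma with the replicate block, and the next lowest was 0.426, in limma without wild-type library 1. CYCD4;2 was under 0.05 unadjusted in 9 of 17.

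Over all genes, the 13 called lower became 5 to 18 when a library was left out, and 40 with the replicate block, which called 24 higher where the main test called 0. The block called 0 D-type cyclins. The sample numbers were not shown to pair the libraries, as the correlations between libraries of the same number were 0.44, 0.04 and 0.50. Those of unlike number lay between -0.46 and 0.06, so numbers 1 and 3 stood above every unlike pair and number 2 did not. The cause was not tested. Among other pathway genes, TSO2 was called lower with DESeq2 (adjusted p = 0.000806), with the block (0.00649) and without wild-type library 1 (0.0382).

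At 11 to 55 reads a library, CYCD6;1, CYCD1;1 and CYCD4;2 are limited most by depth.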
